A study of Mus musculus with 8 samples.

Results

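The cytosolic chaperonin CCT, also called TRiC, is described here at the level of its mRNAs in P19 cells, a mouse embryonal carcinoma line. Its 8 subunit genes were taken by symbol: Tcp1, which encodes the alpha subunit, Cct2 (beta), Cct3 (gamma), Cct4 (delta), Cct5 (epsilon), Cct6a (zeta), Cct7 (eta) and Cct8 (theta). They are 8 of the 23284 genes in the deposited table and 8 of the 11452 with a mean of 1 FPKM or more (a level per length of transcript), so every member was tested. The question was whether subunits of one complex share their mRNA level and their stability.

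CCT is a barrel of a pair of stacked rings, each made of 1 copy of every subunit, and it uses ATP to fold proteins enclosed in its cavity, among them actin and the tubulins. The subunits are related to each other but not interchangeable. In yeast the side of the ring formed by Tcp1, Cct2, Cct4 and Cct5 binds ATP more tightly than the side formed by Cct3, Cct6, Cct7 and Cct8. In the ring Cct5 sits between Cct2 and Cct7.

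P19 cells were transfected with an siRNA against Upf3a (siUpf3a) or with a control siRNA (siControl). The Upf3a protein takes part in nonsense-mediated decay, which breaks down mRNAs with a premature stop codon. A day later actinomycin D, which blocks transcription, was added in both arms, and RNA was taken at 0, 15, 105 and 225 min. All 8 conditions thus include transfection and actinomycin D, and no untransfected cells are part of the comparison. The labels list 2 cultures for each condition and the table holds 1 value for each, so the cultures were combined before deposit and the spread between them is not known. In what follows n counts time points, which share an arm but are not replicates, and the p-values cover only disagreement between time points.

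The arms were checked on Upf3a itself. It stood at 5.27, 4.52, 4.76 and 4.16 FPKM at 0, 15, 105 and 225 min in siUpf3a cells, against 13.6, 14.0, 14.0 and 15.0 FPKM in siControl cells. The authors' limits did not overlap between the arms at any of the 4 times, and the difference was -1.42 on the log2(FPKM + 1) scale (limma, adjusted p = 4.7e-05). FPKM totals ran from 537437 to 923333 in siUpf3a conditions and from 537350 to 880304 in siControl conditions, and read depth is unknown. All 8 pluripotency markers were present, from a mean of 37.5 FPKM for Sall4 to 2014 FPKM for Pou5f1. Their summed level, mostly Pou5f1, ran from 2550 to 4275 FPKM in siUpf3a cells and from 2075 to 3438 FPKM in siControl cells. In siUpf3a cells 7 of 8 were called higher, against 26.1% of all genes tested. The summed fibroblast markers reached 21.9 FPKM in siUpf3a cells and 24.4 FPKM in siControl cells, the trophoblast markers 4.77 and 4.30 FPKM, and the neuron markers, mostly Tubb3, 62.0 and 71.7 FPKM. In siUpf3a cells 2 of 3 tested neuron markers were called lower (Snap25, -0.60, and Tubb3, -0.19; 1 of 3 under ribosomal scaling), as was 1 of 4 tested fibroblast markers (Col1a2, -0.54), and 0 of either list were called higher (limma, adjusted p = 5.3e-04, 0.014 and 1.7e-04). Of all genes tested, 22.3% were called lower in siUpf3a cells. The part of these marker changes in the results below was not tested. In bulk RNA, fewer cells of a type and less RNA per cell cannot be told apart.

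The 8 genes are spread over 8 chromosomes (GENCODE vM21 on GRCm38, the mm10 build of the files). Tcp1 lies at chr17:12915701-12925067 on the plus strand, Cct2 at chr10:117051001-117063814 on the minus strand, Cct3 at chr3:88297116-88321767 on the plus strand and Cct4 at chr11:22990519-23003780 on the plus strand. Cct5 lies at chr15:31590800-31601804 on the minus strand, Cct7 at chr6:85451514-85468475 on the plus strand and Cct8 at chr16:87483326-87495873 on the minus strand. For Cct6a the files give chr5:129787385-129794500, while GENCODE draws a longer gene to position 129846371 with no protein-coding transcript, so no coding length is given for it. The other 7 are alike in design, with a coding length of 1605 to 1668 bases in the transcript used, which is near the same protein size, and 11 to 16 exons. Their 3′ UTRs differ more, from 128 bases in Cct5 to 662 bases in Cct8. Annotated transcripts of the nonsense-mediated decay type number 3 for Cct4, 1 for Cct7 and 1 for Cct8 and 0 for the other members; the table gives one value per gene and does not separate them.

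The promoters of 4 members are shown because these 4 are the ones whose share of the CCT mRNA pool did not overlap between the arms, as described further on; they were chosen after those values were seen. Each window runs from 250 bases before to 50 bases after the start site (RefSeq, GRCm38.p6), 5′ to 3′ on the gene's strand, and capitals mark matches of CCAAT on either strand, read as CCAAT or ATTGG. Cct3 (chr3:88296885-88297184, plus strand) and Cct7 (chr6:85451255-85451554, plus strand) had the higher shares in siUpf3a cells. Cct2 (chr10:117063803-117064102, minus strand) and Cct5 (chr15:31601797-31602096, minus strand) had the lower ones.
Cct3: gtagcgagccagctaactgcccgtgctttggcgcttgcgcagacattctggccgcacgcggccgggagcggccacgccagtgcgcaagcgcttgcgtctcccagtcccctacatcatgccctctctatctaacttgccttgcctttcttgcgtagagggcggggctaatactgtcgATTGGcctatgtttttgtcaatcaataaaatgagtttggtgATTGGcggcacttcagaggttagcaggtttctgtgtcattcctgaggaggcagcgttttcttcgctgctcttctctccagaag
Cct7: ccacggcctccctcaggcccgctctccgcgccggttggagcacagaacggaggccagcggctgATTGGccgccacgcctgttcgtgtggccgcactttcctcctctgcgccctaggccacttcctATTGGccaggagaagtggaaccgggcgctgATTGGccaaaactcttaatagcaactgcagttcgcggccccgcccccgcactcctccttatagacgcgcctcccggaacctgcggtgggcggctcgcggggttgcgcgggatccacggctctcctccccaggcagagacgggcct
Cct2: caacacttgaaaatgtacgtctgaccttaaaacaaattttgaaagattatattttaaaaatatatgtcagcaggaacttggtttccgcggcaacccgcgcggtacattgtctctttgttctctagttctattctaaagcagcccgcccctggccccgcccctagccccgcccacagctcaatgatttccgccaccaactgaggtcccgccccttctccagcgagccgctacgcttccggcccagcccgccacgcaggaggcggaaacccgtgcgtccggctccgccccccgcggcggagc
Cct5: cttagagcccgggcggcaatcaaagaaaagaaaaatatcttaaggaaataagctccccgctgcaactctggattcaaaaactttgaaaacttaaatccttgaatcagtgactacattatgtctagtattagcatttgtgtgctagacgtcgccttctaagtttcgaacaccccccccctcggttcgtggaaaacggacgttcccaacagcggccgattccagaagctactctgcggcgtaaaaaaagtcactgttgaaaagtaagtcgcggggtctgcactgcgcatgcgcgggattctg

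CCAAT, the box bound by the factor NF-Y, was found 2 times in the Cct3 window and 3 times in the Cct7 window. The Cct2 and Cct5 windows shown held 0. RefSeq has 2 windows each for Cct2 and Cct5 and 1 for each other member searched. For Cct2 and Cct5 the window with its start site nearest the edge of the deposited locus was used. Matches in the other window of each are not given. Among all 32851 RefSeq windows, 37.4% held at least 1 match and 11.7% held 2 or more. The other members do not follow the same division: Cct6a had 2 matches and Tcp1 had 1, Cct8 had 0, and the shares of all these overlapped between the arms. No window was given for Cct4. The GC box GGGCGG was present in 7 of 7 windows, against 35.7% of all windows, and none of its matches overlapped a CCAAT match. CCGGAAGT, a site of ETS factors, was in 2 of 7 windows (Tcp1 and Cct8) against 3.89% of all. The units of the heat shock element pair in either orientation: GAANNTTC was in 0 of 7 against 7.86%, and TTCNNGAA was in 2 of 7 (Cct5 and Cct6a) against 8.52%. TATAAA was in 0 of 7 against 13.6%. All motifs were searched on both strands, and a match describes letters, not binding.

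The subunit mRNAs were all abundant and lay within a narrow band. Their means over the 8 conditions ran from 297 FPKM for Cct3 to 556 FPKM for Cct5, a 1.87-fold span, and by that mean they ranked between 157 (Cct5) and 291 (Cct3) among all genes in the table. The order was Cct5 (556 ± 126 FPKM, SD over 8 conditions), Cct2 (454 ± 87.4), Cct4 (362 ± 57.8), Cct6a (342 ± 61.7), Cct7 (339 ± 84.3), Cct8 (331 ± 77.0), Tcp1 (315 ± 59.0) and Cct3 (297 ± 61.8). These SDs include the change over time. Neighbours in this order had overlapping authors' limits in every condition, so no step from one subunit to the next exceeded them. Over all 28 pairs of subunits, limits overlapped in all 8 conditions for 21 pairs, and no pair was apart in all 8; the widest contrast, Cct5 over Cct3, overlapped in 2 of 8.

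The order itself was steadier than the limits. Cct5 was highest, Cct2 second and Cct3 lowest in all 8 conditions, and 21 of the 28 pairs kept one order throughout. Cct7 was the subunit whose place moved with the arm: it ranked between 3 and 5 in siUpf3a cells and between 6 and 7 in siControl cells. Cct7 exceeded Cct8 at 4 of 4 times in siUpf3a cells and at 0 of 4 in siControl cells. The fold between the highest and lowest subunit was 1.64 to 1.74 in siUpf3a cells and 1.93 to 2.31 in siControl cells, so the 8 mRNAs stood closer together in the knockdown at each time. No test was run on these orders.

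For scale, 2 other complexes with fixed composition were read the same way. The 14 genes of the 20S proteasome core spanned 3.40-fold, from 158 FPKM for Psma1 to 537 FPKM for Psmb3, and the 6 genes of the MCM2-7 helicase spanned 2.17-fold. The mitochondrial chaperonin pair had means of 513 FPKM for Hspd1, the ring subunit, and 567 FPKM for its lid Hspe1. Cct6b, the zeta subunit known from testis, stood at 0.16 ± 0.047 FPKM in siUpf3a cells and 0.21 ± 0.034 FPKM in siControl cells (SD, n = 4 times), so Cct6a supplied nearly all zeta mRNA. Mkks, a chaperonin-like protein of the Bardet-Biedl group, was the highest of the other chaperonin-like genes with a mean of 8.20 FPKM over all conditions.

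Cct5 and Cct2, the most abundant subunits, were lower in siUpf3a cells at 3 of 4 times without passing the test. Cct5 stood at 439, 444, 555 and 741 FPKM in siUpf3a cells, against 474, 459, 600 and 735 FPKM in siControl cells. Cct2 stood at 367, 375, 441 and 587 FPKM in siUpf3a cells, against 408, 390, 495 and 572 FPKM in siControl cells. For both genes, on the deposited scale, siUpf3a was the lower arm until 105 min and the higher one by a small margin at 225 min. FPKM totals in siUpf3a cells were 537437, 548042, 662435 and 923333 at 0, 15, 105 and 225 min. In siControl cells they were 562848, 537350, 686647 and 880304. The part of these totals in the order of the arms at each time was not tested. The differences were -0.06 ± 0.043 for Cct5 and -0.08 ± 0.049 for Cct2 on the log2(FPKM + 1) scale (± SE; limma, adjusted p = 0.25 and 0.20).

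Cct7 and Cct3 were the members called higher in siUpf3a cells. Cct7 stood at 295, 310, 384 and 509 FPKM in siUpf3a cells, against 269, 246, 314 and 383 FPKM in siControl cells. Its limits overlapped between the arms at each time, but siUpf3a was higher at 4 of 4 times. On the deposited scale the gap was wider at 225 min than at 0 min. The difference was 0.29 ± 0.054 (limma, adjusted p = 0.0040). Cct3 stood at 268, 269, 325 and 426 FPKM in siUpf3a cells, against 245, 231, 290 and 319 FPKM in siControl cells. Here too siUpf3a was higher at 4 of 4 times, with overlapping limits, and the difference was 0.23 ± 0.057 (limma, adjusted p = 0.013).

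The remaining 4 subunits stood close together in the arms. Cct4 stood at 316, 328, 371 and 481 FPKM in siUpf3a cells, against 317, 315, 364 and 401 FPKM in siControl cells. Cct6a stood at 303, 297, 354 and 462 FPKM in siUpf3a cells, against 298, 283, 345 and 397 FPKM in siControl cells. On the deposited scale both genes were nearly level between the arms until 105 min, and siUpf3a was above at 225 min. Cct8 stood at 271, 276, 346 and 464 FPKM in siUpf3a cells, against 275, 260, 330 and 425 FPKM in siControl cells. Tcp1 stood at 271, 275, 326 and 427 FPKM in siUpf3a cells, against 280, 252, 322 and 368 FPKM in siControl cells. At 0 min siControl was the higher arm for both on the deposited scale, and from 15 min on siUpf3a was. None of the 4 passed: the differences were 0.09 (Cct4), 0.09 (Cct6a), 0.06 (Cct8) and 0.08 (Tcp1), with adjusted p between 0.18 and 0.27 by limma.

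**Figure D1:**
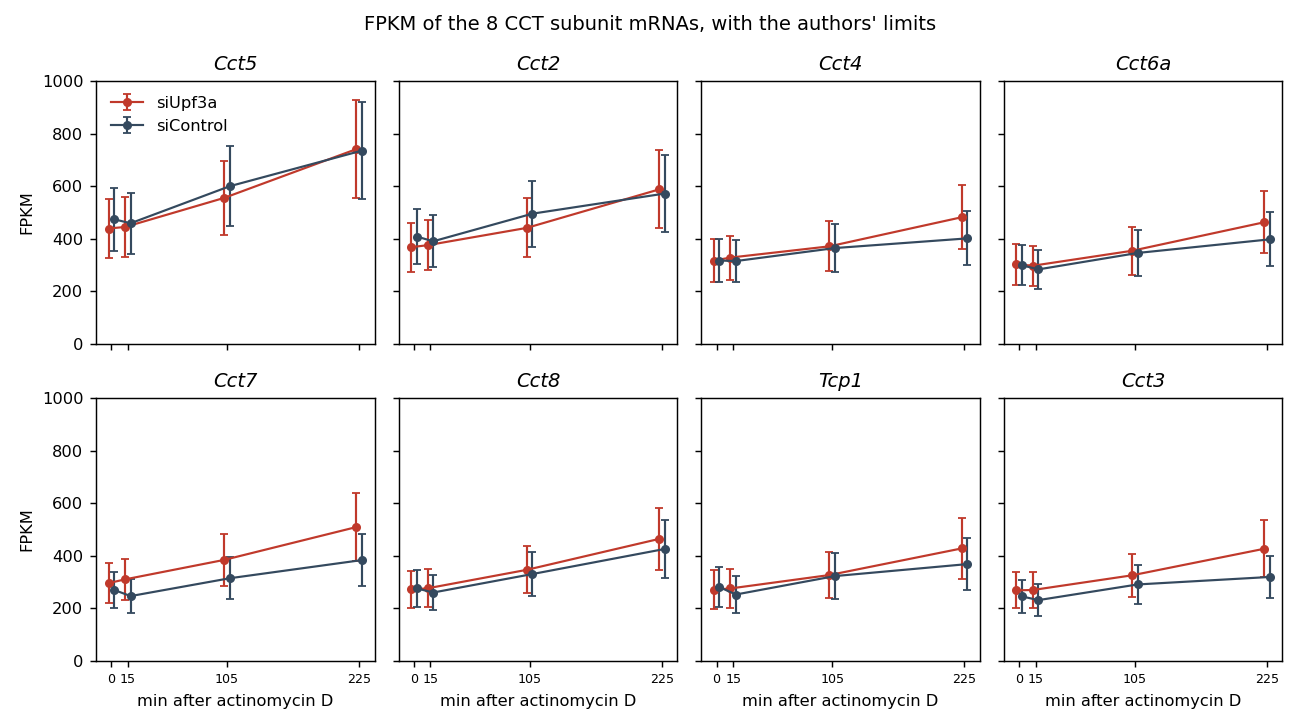
FPKM (linear axis from 0) of each CCT subunit against minutes after actinomycin D, in siUpf3a cells (red) and siControl cells (dark blue); points are the deposited values, bars the authors' limits, and the points are set apart sideways for legibility. All 8 genes gained FPKM by 225 min in both arms, a direction that turns with quantile normalization or with scaling to ribosomal protein genes, and the limits of the arms overlapped at every time.

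Over all genes the arms differed widely, which sets the scale for these counts. Of the 11452 genes tested 48.4% were called, 26.1% higher and 22.3% lower in siUpf3a cells, and 55.7% had an unadjusted p under 0.05. Of the 8 members 2 were called higher, a share near the background in that direction, and 0 were called lower, so fewer were called in either direction than among all genes. Their median difference was 0.08, against 0.0046 for all genes tested, and 54.2% of all genes lay within the members' range. By direction alone, siUpf3a was higher at all 4 times for 3 members (Cct3, Cct6a and Cct7), against 31.8% of genes, and lower at all 4 times for 0 members, against 28.6% of genes. No member had FPKM values in one arm that all lay above those in the other. Among all genes 8.36% did with siUpf3a higher and 5.39% with siUpf3a lower, 13.7% together. The members' FPKM at 225 min was 1.27-fold to 1.72-fold that at 0 min, and their largest mean fold of siUpf3a over siControl was 1.22 (Cct7). Such change over time makes overlap likely, so the members' overlap is not read against these shares. The sign for Cct8 turned with quantile normalization (-0.0027), and that for Cct5 turned when values were scaled to ribosomal protein genes (0.02). Under ribosomal scaling 6 members were called higher while the median of all genes moved to 0.08. The share of all genes called under that scaling is not given, so the count of 6 is not read as a trait of the members.

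**Figure D2:**
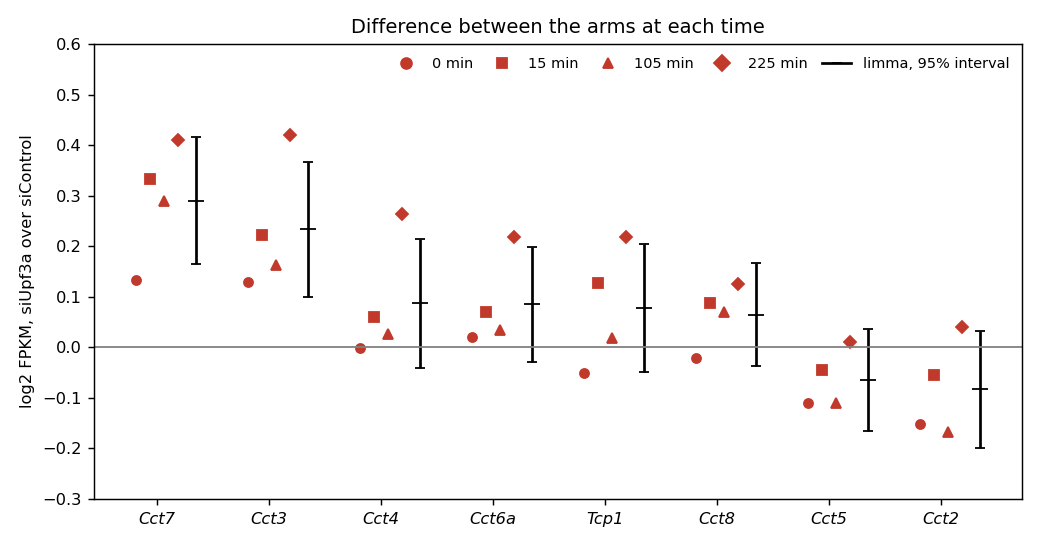
Difference in log2 FPKM between siUpf3a and siControl cells for each subunit at 0, 15, 105 and 225 min (red symbols), with the limma estimate on log2(FPKM + 1) and its 95% interval (black). On the deposited scale, Cct7 and Cct3 lie above 0 at all 4 times and Cct2 and Cct5 lie below 0 at 3 of 4. Every subunit has its most positive value there at 225 min, when the FPKM total was higher in siUpf3a cells (923333 against 880304). At 0 min that total was lower in siUpf3a cells (537437 against 562848). Values at each time under other scalings are not given. The limma estimate of Cct8 changes sign under quantile normalization and that of Cct5 under scaling to ribosomal protein genes.

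The balance among the subunits can be read without any scaling between conditions, as the share of each in the summed FPKM of the 8. The sum stood at 2530, 2573, 3101 and 4098 FPKM in siUpf3a cells, against 2567, 2434, 3060 and 3600 FPKM in siControl cells, and made up 0.444% to 0.471% of all FPKM in siUpf3a cells and 0.409% to 0.456% in siControl cells. An equal share would be 12.5%. The shares of 4 subunits did not overlap between the arms over the 4 times: Cct2 and Cct5 were lower and Cct3 and Cct7 higher in siUpf3a cells. Dividing every tested gene by the same sum gave 13.7% of genes without overlap, 6.37% higher and 7.28% lower in siUpf3a cells. The members are part of that sum and move with it, so the division removes most of their change over time. Other genes can keep theirs, which makes overlap more likely. The 13.7% is thus not a like background, and the count of 4 members is not read against it. Shares sum to a fixed total, so the members' shares are not independent of each other.

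Cct2 took 14.5%, 14.6%, 14.2% and 14.3% of the sum at the 4 times in siUpf3a cells, against 15.9%, 16.0%, 16.2% and 15.9% in siControl cells. Cct5 took 17.3%, 17.3%, 17.9% and 18.1% in siUpf3a cells, against 18.5%, 18.8%, 19.6% and 20.4% in siControl cells. The Cct2 share hardly moved with time in either arm, while the Cct5 share was larger at 225 min than at 0 min in both. Cct7 took 11.7%, 12.0%, 12.4% and 12.4% in siUpf3a cells, against 10.5%, 10.1%, 10.3% and 10.6% in siControl cells. Cct3 took 10.6%, 10.5%, 10.5% and 10.4% in siUpf3a cells, against 9.54%, 9.48%, 9.49% and 8.86% in siControl cells. The mean share of each of these 4 was nearer to the equal share in siUpf3a cells: Cct2 and Cct5 were less far above it, and Cct7 and Cct3 less far below it. The gaps between the arm means, siUpf3a minus siControl, were -1.58 percentage points for Cct2, -1.68 for Cct5 and 1.14 for Cct3, and the Cct7 means were 12.1% in siUpf3a cells and 10.4% in siControl cells.

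The other 4 shares overlapped between the arms. Tcp1 averaged 10.6% in siUpf3a cells and 10.5% in siControl cells, and Cct4 averaged 12.2% in siUpf3a cells and 12.1% in siControl cells. Cct6a averaged 11.5% in siUpf3a cells and 11.4% in siControl cells, and Cct8 averaged 11.0% in each arm. These means lie much closer together than those of the first 4. Cct2 and Cct5 belong to the side of the ring that binds ATP tightly in yeast and Cct3 and Cct7 to the other side, but Tcp1 and Cct4 of the first side and Cct6a and Cct8 of the second did not part in this way.

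**Figure D3:**
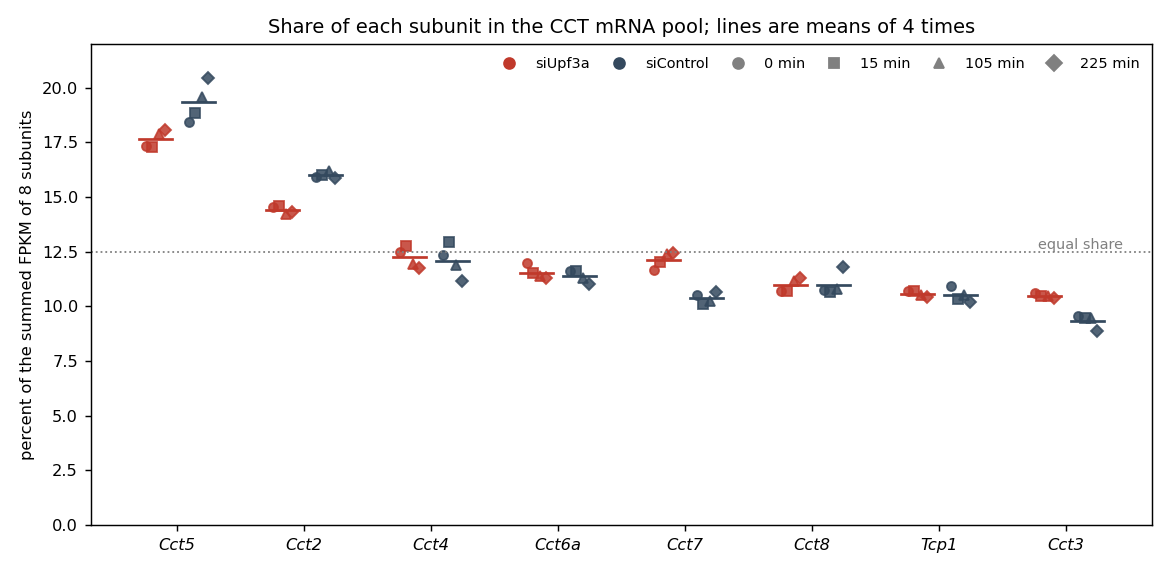
Percent of the summed FPKM of the 8 subunits taken by each subunit (axis from 0), with 1 symbol per time for siUpf3a (red) and siControl (dark blue), lines at the means of 4 times and a dotted line at the equal share of 12.5%. The arms are apart for Cct5 and Cct2, with siUpf3a below, and for Cct7 and Cct3, with siUpf3a above, and overlap for the other 4.

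Some loci hold genes on the opposite strand, and whether counting used the strand is not stated, so reads in the shared parts cannot be assigned with certainty. Cct7 overlaps Pradc1, listed as 1700040I03Rik, which stood at 5.16 ± 1.00 FPKM in siUpf3a cells and 4.43 ± 0.76 FPKM in siControl cells (SD, n = 4 times). Cct8 overlaps Usp16, a deubiquitinase gene, at 9.96 ± 0.62 FPKM in siUpf3a cells and 6.80 ± 0.34 FPKM in siControl cells. Tcp1 overlaps Mrpl18, at 105 ± 21.1 FPKM in siUpf3a cells and 97.3 ± 16.0 FPKM in siControl cells, and Acat3, at 50.3 ± 10.8 FPKM in siUpf3a cells and 47.0 ± 8.51 FPKM in siControl cells. Both of these are larger than the gap between the arm means of Tcp1. Cct6a overlaps Psph, at 33.7 ± 9.02 FPKM in siUpf3a cells and 44.4 ± 10.4 FPKM in siControl cells. Of the small nucleolar RNA genes, Snora20 within Tcp1 was listed at 0 in every condition, and Snora15 by Cct6a stood at 24.8 ± 28.7 FPKM in siUpf3a cells and 53.6 ± 45.0 FPKM in siControl cells. The part of these genes in the members' values was not tested. The overlaps above are drawn from GENCODE, where Cct2, Cct3, Cct4 and Cct5 had none. In the loci of the deposited file, Tcp1 was joined with Acat3 and Snora20, Cct7 with 1700040I03Rik and Cct8 with Usp16. The other members, Cct6a among them, shared no locus there.

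After transcription was blocked, all 8 subunits had a higher FPKM at 225 min than at 0 min in both arms; this direction holds for the deposited values and median-of-ratios scaling and turns under the other scalings given below. No outside standard was added, so a slope is a change on the FPKM scale and no half-life can be computed. The FPKM totals were also higher at 225 min than at 0 min in both arms, and relative to these totals the subunits were lower at the end. Their summed share of all FPKM was 0.471%, 0.470%, 0.468% and 0.444% at 0, 15, 105 and 225 min in siUpf3a cells, against 0.456%, 0.453%, 0.446% and 0.409% in siControl cells. Fitted over both arms, the slopes ran from 0.13 ± 0.017 for Cct4 to 0.20 ± 0.015 for Cct8 (log2(FPKM + 1) per hour ± SE; limma, adjusted p = 1.7e-04 and 7.6e-06), and all 8 were called higher. With quantile normalization the same slopes were between -0.076 and -0.0084 with 6 called lower. With scaling to ribosomal protein genes they were between -0.17 and -0.097 with 8 called lower, so their sign depends on the scale chosen. The shares of all genes called under these scalings are not given, so the counts are not read as traits of the members. Relative to the median of all tested genes, the members' slopes were higher on the deposited scale (median 0.16 against 0.014) and on the ribosomal scale, where the median of all genes was -0.23, and lower under quantile normalization, where it was 0.032.

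A call in this fit is common: 81.3% of all tested genes passed, 42.7% higher and 38.6% lower, and 82.2% had an unadjusted p under 0.05. The members' range of slopes held 14.2% of all tested genes, with 75.5% below the lowest member and 10.3% above the highest. The order from high to low was Cct8, Cct5 (0.19), Cct7 (0.18), Cct2 (0.16), Tcp1 (0.15), Cct3 (0.15), Cct6a (0.15) and Cct4. The 95% intervals of the highest and the lowest member, 0.16 to 0.23 for Cct8 and 0.088 to 0.17 for Cct4, met only at their edges; the difference between them was not tested.

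The order of slopes was much the same in both arms, with Spearman's rho of 0.83 and Pearson's r of 0.93 across the 8 genes, which share their libraries and are not independent. In siUpf3a cells the slopes ran from 0.16 for Cct4 to 0.21 for Cct8, and in siControl cells from 0.096 for Cct4 to 0.18 for Cct8. Cct4 was lowest and Cct8 highest in each arm. The spread among members was smaller in siUpf3a cells, 0.051 from lowest to highest, than in siControl cells, where it was 0.086.

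Over the whole course, FPKM at 225 min relative to 0 min was 1.52-fold to 1.72-fold in siUpf3a cells and 1.27-fold to 1.55-fold in siControl cells. Cct7 had the largest ratio in siUpf3a cells (1.72) and Cct5 in siControl cells (1.55). The authors' limits at 225 min lay above those at 0 min for 3 members (Cct5, Cct7 and Cct8) in siUpf3a cells, where 7.01% of all genes did so. In siControl cells this held for 0 members and 3.32% of all genes. The members are among the more abundant genes, and the width of the limits was not compared between genes. These shares may therefore not be a like background. The path differed by interval. From 0 to 15 min the log2 change was -0.028 to 0.068 in siUpf3a cells and -0.15 to -0.0095 in siControl cells, all 8 members being lower at 15 min in the control arm. The median change of all tested genes over that interval was 7.3e-05 in siUpf3a cells and -0.035 in siControl cells. From 15 to 105 min the changes were 0.18 to 0.33 in siUpf3a cells and 0.21 to 0.39 in siControl cells. From 105 to 225 min they were 0.38 to 0.42 in siUpf3a cells and 0.13 to 0.37 in siControl cells, so that the 8 members moved almost as one in the knockdown and spread apart in the control. These signs too hold for the deposited scale, on which the FPKM totals of the libraries differ.

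Whether the slopes differed between the arms was asked with the arm-by-hours term. It was positive for all 8 members on the deposited scale, from 0.023 for Cct5 to 0.064 for Cct3 (log2 per hour, siUpf3a minus siControl), but none was called by limma, with adjusted p between 0.76 and 0.86 and no member at an unadjusted p under 0.05. Over all genes 1 was called, which is 0.00873% of those tested, and it was higher; 0.0% were called lower, and 6.65% had an unadjusted p under 0.05. For Cct3 the 95% interval of the difference was -0.011 to 0.14, and for Cct5 it was -0.046 to 0.092, so both intervals include 0. In data simulated with noise independent between genes, 0% of differences of 0.1 and 52% of differences of 0.3 were recovered by this fit. The members' estimates are below the smaller size. Without the 225 min point the estimates ran from -0.032 to 0.049 and 4 of them (Cct2, Cct3, Cct5 and Cct6a) were negative. Under quantile normalization Cct2, Cct5, Cct6a and Cct8 were negative, and under ribosomal scaling Cct2, Cct5 and Cct8 were.

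**Figure D4:**
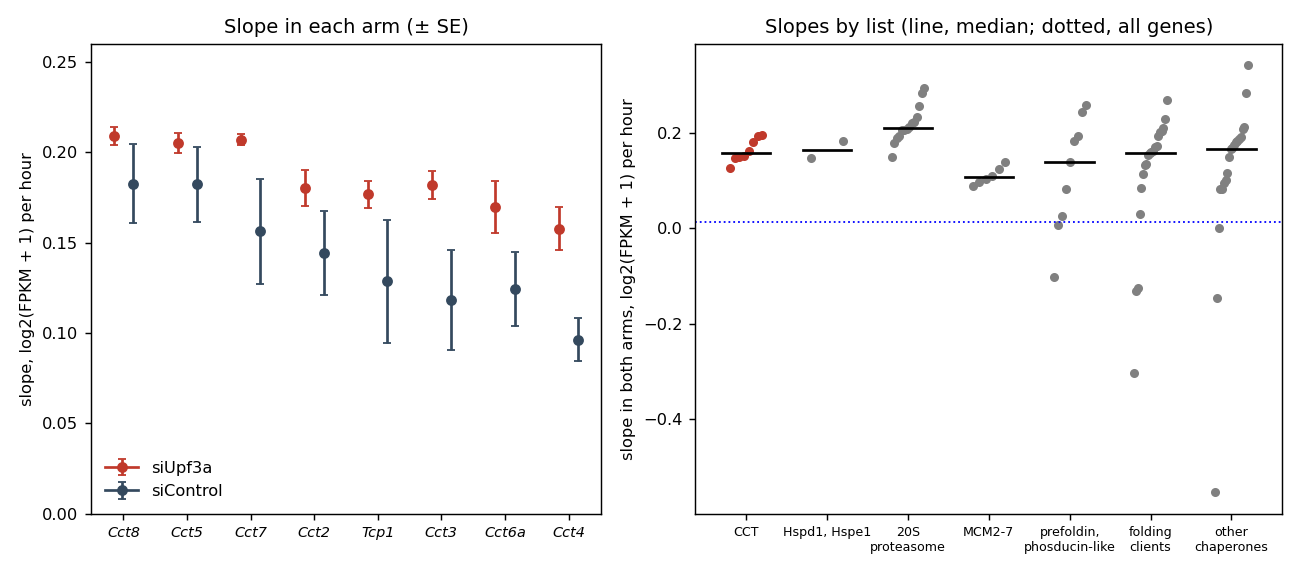
Left, slope of log2(FPKM + 1) per hour after actinomycin D for each subunit in siUpf3a cells (red) and siControl cells (dark blue), with SE from a line through 4 times; right, slopes fitted over both arms for the subunits (red) and for the other gene lists (grey), with list medians and the median of all tested genes (dotted). The siUpf3a slope is the larger for all 8 subunits on the deposited scale, but no difference was called; all member slopes are above 0 on this scale and below 0 under quantile normalization and ribosomal scaling.

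Other complexes had slopes of the same sign on the deposited scale. All 14 genes of the 20S proteasome were called higher, from 0.15 for Psma5 to 0.29 for Psmb3, against 3 higher under quantile normalization and 11 lower under ribosomal scaling. All 6 genes of MCM2-7 were called higher, from 0.089 for Mcm3 to 0.14 for Mcm2, against 4 lower under quantile normalization and 6 lower under ribosomal scaling. The signs of these complexes thus depend on the scale as those of CCT do. On the deposited scale the CCT median of 0.16 lay between the proteasome median of 0.21 and the MCM median of 0.11. Hspd1 and Hspe1 had slopes of 0.15 and 0.18, and both were called lower under quantile normalization and ribosomal scaling. The difference between arms was called for 0 of 14 proteasome genes, against 4 higher under ribosomal scaling and 1 under quantile normalization. It was called for 1 of 6 MCM genes (Mcm4, -0.13, limma adjusted p = 0.039), which was not called lower under median-of-ratios or ribosomal scaling. Under quantile normalization 2 MCM genes were called lower, Mcm4 (-0.19) and Mcm2 (-0.12), and under ribosomal scaling 1 was called higher. Within the mitochondrial chaperonin, Hspd1 was called higher in siUpf3a cells (562 ± 116 FPKM, against 463 ± 79.0 FPKM in siControl cells, SD, n = 4 times; 0.27, limma adjusted p = 0.0037). Hspe1 was not called (554 ± 142 FPKM in siUpf3a cells and 581 ± 121 FPKM in siControl cells; -0.08, limma adjusted p = 0.20).

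Prefoldin, which hands unfolded proteins to CCT, and the phosducin-like proteins, which act with it in folding, were lower in level than CCT and less uniform. Of 10 genes 9 were tested, with means from 14.7 to 135 FPKM. Over time 6 were called higher and 1 lower, against 5 higher and 2 lower under quantile normalization and 0 higher and 8 lower under ribosomal scaling. Pfdn1, a prefoldin subunit, had a slope of 0.26 (-0.03 under ribosomal scaling), and Pdcl, a phosducin-like cochaperone for G protein beta subunits, had one of -0.10, negative under every scaling tried. Between the arms 2 were called higher, H2-Ke2 (prefoldin subunit 6) and Pfdn5. H2-Ke2 stood at 110 ± 8.95 FPKM in siUpf3a cells against 83.8 ± 9.06 FPKM in siControl cells (0.39, limma adjusted p = 0.0010). Pfdn5 had a difference of 0.18 (limma adjusted p = 0.039). Under quantile normalization the Pfdn5 difference was 0.12 (limma adjusted p = 0.053).

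Among 20 genes whose proteins are folded by CCT, 16 were called higher over time and 3 lower, against 7 higher and 8 lower under quantile normalization and 0 higher and 19 lower under ribosomal scaling. Gnb2, a G protein beta subunit, had a slope of 0.27 (-0.02 under ribosomal scaling), and Plk1, a mitotic kinase, one of -0.30, negative under every scaling tried. Between the arms 7 were called higher and 2 lower, against 12 and 0 under ribosomal scaling. Fzr1, an activator of the anaphase-promoting complex, stood at 46.5 ± 6.41 FPKM in siUpf3a cells and 25.8 ± 5.64 FPKM in siControl cells (0.84, limma adjusted p = 1.3e-04). Tubg1, which encodes gamma-tubulin, stood at 57.9 ± 14.5 FPKM in siUpf3a cells and 66.8 ± 15.9 FPKM in siControl cells (-0.20, limma adjusted p = 0.012). Under ribosomal scaling its limma adjusted p was 0.069. Of 20 other cytosolic chaperones 5 were called higher and 4 lower in siUpf3a cells, against 4 and 7 under quantile normalization and 8 and 2 under ribosomal scaling: Hsph1, a nucleotide exchange factor of Hsp70, had a difference of 0.39 and Dnajb1, an Hsp40 cochaperone, one of -0.71 (limma, adjusted p = 0.0012 and 8.5e-05). Over time 17 of the 20 were called higher and 2 lower, from 0.34 for Hspb1 to -0.55 for Dnajb1, against 5 and 8 under quantile normalization and 1 and 18 under ribosomal scaling. The counts for all these lists on the deposited scale are read against the shares of all genes called, given above. Those shares do not apply to the other scalings. No share of all genes is given for these, so the counts under them show only how calls depend on the scale.

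The 8 members moved together across conditions: between pairs of members, Pearson's r of log2(FPKM + 1) over the 8 conditions was 0.79 to 0.995 with a median of 0.95. The points share their libraries and the common trend over time. Of 8091 other genes with a mean of 5 FPKM or more, 3208 had an r of 0.79 or higher with the members' mean profile. A profile like the members' mean was thus common outside CCT. That r is with a mean of 8 genes and the cut-off is the lowest pair of members, so it is not a like measure for the pairs. Pairs of genes outside CCT were not compared. The lowest r was between Cct2 and Cct7, members whose shares lay on opposite sides in the comparison of arms. The low r and the opposite shares describe the same offset between the arms. With each arm centred on its own mean, the r of this pair was 0.993. The lowest r of any pair was then 0.976, for Cct4 and Cct8. The genes most like the members' mean were 1500001M20Rik, Akr1a1, Use1, Eif2b5 and Rtn3, with r between 0.998 and 0.999. Akr1a1, an aldehyde reductase gene, averaged 312 ± 112 FPKM in siUpf3a cells and 283 ± 80.1 FPKM in siControl cells (SD, n = 4 times), a level close to that of Cct3 and Tcp1.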

How the data were processed

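RNA from P19 cells in 2 siRNA arms at 4 times was sequenced. The submitters' processing notes name TopHat2, Cufflinks and mm10; the annotation, any scaling between conditions and the use of strand are not given in the sources used here. The deposited table gives 1 FPKM value per gene and condition with a lower and an upper limit, per the file headers, for 23284 genes; the level of the limits is not stated. The members' upper limits lay 25.3% to 27.2% above the FPKM, and no member had a failed status. Low values showed no whole-read steps (bins were 0.05 log2 wide, and the fullest took in 2.29% to 3.44% of the 2095 genes examined), so depth is unknown.

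Values were taken as log2(FPKM + 1), which understates the change of low genes, for the 11452 genes that averaged at least 1 FPKM. R 4.3.3 with limma 3.58.1 (eBayes without trend) was fitted to the whole table, with Benjamini-Hochberg adjustment over all genes tested and a threshold of 0.05; Python 3.11.15 did the rest. The slope in both arms had arm as a term, the difference between arms had time as a factor, and the difference in slope had both, with 5, 3 and 2 residual degrees of freedom. On simulated data for 11452 genes, 59% of slopes of 0.1 and 98% of slopes of 0.3 were recovered in the fit of both arms. Of differences between arms, 48% of those of 0.3 and 81% of those of 0.5 were recovered. False calls made up 3.09%, 4.44% and 1.89% of the calls in the 3 fits in the order above. The simulated noise was independent between genes, with no shift shared within a library. Its spread came from the fit of the difference between arms. These rates hold for that setting and do not show error control in the deposited values. The members and the gene lists were chosen with earlier results of these data known. Of each list at most 4 genes are named, those with the highest and lowest value of the quantity described, plus Cct6b, Hspd1 and Hspe1; Pfdn5, the marker genes and the genes overlapping members were named outside this rule, after their values were seen. Pfdn6 and Map2 are listed as H2-Ke2 and Mtap2. Genes most like the members are the 5 with the highest Pearson r. Alternatives tried were other pseudocounts, filters, scalings and variance models, and each time left out; counts for the gene lists under other scalings were added after seeing the data.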

Additional observations from a re-analysis of the deposited data

How the results depend on the processing

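Other pseudocounts, filters on low values, median-of-ratios scaling, eBayes with trend and robust, and leaving out each time in turn changed no call of a member in any of the 3 fits. Scaling did. The number of members called higher over time was 0 under quantile normalization, with 6 called lower, and 0 under scaling to ribosomal protein genes, with 8 called lower. Under quantile normalization the slopes were -0.040 for Tcp1, -0.070 for Cct2, -0.045 for Cct3, -0.076 for Cct4, -0.040 for Cct5, -0.059 for Cct6a, -0.018 for Cct7 and -0.0084 for Cct8. Under ribosomal scaling they were -0.14 for Tcp1, -0.13 for Cct2, -0.14 for Cct3, -0.17 for Cct4, -0.099 for Cct5, -0.15 for Cct6a, -0.11 for Cct7 and -0.097 for Cct8; the median slope of all genes then was -0.23. For the difference between arms, ribosomal scaling called 6 members higher and turned Cct5 to 0.016, and quantile normalization turned Cct8 to -0.0027. For the difference in slope, quantile normalization turned Cct2 to -3.8e-04, Cct5 to -0.023, Cct6a to -0.0081 and Cct8 to -0.012, and ribosomal scaling turned Cct2 to -0.0013, Cct5 to -0.014 and Cct8 to -0.011. Without 225 min it was -0.032 for Cct2, -0.0013 for Cct3, -0.015 for Cct5 and -0.0026 for Cct6a. Leaving out the other times gave values up to 0.052, 0.078, 0.033 and 0.054 for these 4 genes in the same order. The causes were not tested. The count of all genes called in that fit was 1, against 0 with no filter, 6 with trend and robust, and 2 to 22 with a time left out. The alternatives for the shares were chosen after seeing the data and cannot by construction make the shares of the 4 subunits overlap, so they say nothing about stability. No paired analysis was possible because each condition has 1 deposited value and no replicate numbers; the arms were matched by time, which is a term in the test of their difference.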
